A study of Mus musculus with 20 samples.

Results

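The semaphorins, plexins, neuropilins, Eph receptors and ephrins were taken as all protein-coding genes of GENCODE vM21 whose symbols begin with Sema3 to Sema7, Plxna, Plxnb, Plxnc, Plxnd, Epha, Ephb, Efna or Efnb, together with Nrp1 and Nrp2. This gave 53 of 21938 protein-coding genes, namely 7 class 3 semaphorins, 6 class 4 semaphorins, 7 semaphorins of classes 5 to 7, 2 neuropilins, 4 A plexins, 5 B to D plexins, 9 EphA receptors, 5 EphB receptors, 5 ephrin-A ligands and 3 ephrin-B ligands. A peak of the histone mark H3K27ac, which marks active promoters and enhancers, was given to a gene when it overlapped the gene body or when the gene held the nearest start site within 100 kb. By this rule 716 of 144852 peaks in 10 libraries belonged to the 53 guidance genes. All samples were wild-type (WT) mouse facial tissue with mixed cells. The e11.5 libraries came from the mandibular process, maxillary process, medial nasal plate and lateral nasal plate, and the e13.5 and e15.5 libraries from the mandibular process, maxillary process and nose, with 1 library each.

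Semaphorins are secreted or membrane-bound ligands that steer migrating cells, growing axons and vessels, mostly by repulsion. Plexins are their signalling receptors, and neuropilins are co-receptors that bind the secreted class 3 semaphorins and hand the signal to A plexins. Eph receptors are tyrosine kinases that bind membrane-anchored ephrins on neighbouring cells, so that both cells can receive a signal, and they are known for keeping cell populations apart. In the face these families are known for guiding neural crest cells and cranial nerves and for shaping the palate and the vessels.

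The sequences shown here belong to the elements on which the results below turn. The first is in the distal region of Plxna1 found in every e15.5 library and in no e11.5 library, the second in the Efna5 region found in every e11.5 library and in no e15.5 library, and the third in the widest region of a guidance gene found in every nasal and in no mandibular or maxillary library of e11.5 and e13.5, which lies upstream of Efna5. Each is the 300 bases in the middle of the part of the region that most of the libraries with a peak shared, read from the plus strand of GRCm38 (the mm10 build). None of the 3 windows touched an annotated exon. Capitals mark matches on either strand to letters known to be bound by homeodomain factors (TAATTA), AP-1 (TGACTCA, which on the other strand reads TGAGTCA), TEAD factors (GGAATG), AP-2 (GCCNNNGGC), E-box factors (CAGATG) and SOX factors (ACAATG).
Plxna1, chr6:89351737-89352036, found late: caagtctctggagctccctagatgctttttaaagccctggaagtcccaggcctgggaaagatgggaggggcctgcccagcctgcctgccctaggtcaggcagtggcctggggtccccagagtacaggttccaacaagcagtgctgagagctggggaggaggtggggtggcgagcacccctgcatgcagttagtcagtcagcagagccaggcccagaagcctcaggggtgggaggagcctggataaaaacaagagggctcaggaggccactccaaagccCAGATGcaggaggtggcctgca
Efna5, chr17:62614309-62614608, found early: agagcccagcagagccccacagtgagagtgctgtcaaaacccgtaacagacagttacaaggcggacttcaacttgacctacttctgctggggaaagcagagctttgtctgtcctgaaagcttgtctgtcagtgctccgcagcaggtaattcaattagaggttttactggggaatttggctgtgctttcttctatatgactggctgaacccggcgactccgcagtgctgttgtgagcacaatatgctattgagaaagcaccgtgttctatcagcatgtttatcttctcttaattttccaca
Efna5, chr17:62962827-62963126, found in nasal tissue: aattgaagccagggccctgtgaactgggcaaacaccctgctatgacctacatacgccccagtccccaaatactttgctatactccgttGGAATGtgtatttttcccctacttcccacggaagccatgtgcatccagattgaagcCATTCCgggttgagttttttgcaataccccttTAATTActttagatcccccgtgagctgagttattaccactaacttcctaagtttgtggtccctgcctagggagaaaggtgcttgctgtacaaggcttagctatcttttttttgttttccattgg
The Plxna1 window held 1 E-box match, the early Efna5 window held no match to any of the letters, and the nasal Efna5 window held 1 homeodomain and 2 TEAD matches. Over the middle 300 bases of every distal region of at least that length, a homeodomain match was found in 13 of 146 regions of guidance genes (8.90%) and in 7.08% of all 24109 regions. A TEAD match was found in 14.4% of the guidance gene regions against 19.2% of all, an AP-1 match in 4.11% against 6.03%, an AP-2 match in 8.22% against 9.52%, an E-box match in 29.5% against 25.8% and a SOX match in 15.1% against 15.3%. No set of these letters is contained in another, and a match is a description of the sequence only. The median GC content was 48.7% in the guidance gene regions and 47.7% in all regions.

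The fourth sequence is the promoter of Nrp2, which carried no peak at e11.5 and a peak about 5 kb wide in 4 later libraries. These are the 218 bases before the annotated start, on the plus strand of GRCm38.p6 as RefSeq gives it, with CpG dinucleotides in capitals.
Nrp2, chr1:62703067-62703284: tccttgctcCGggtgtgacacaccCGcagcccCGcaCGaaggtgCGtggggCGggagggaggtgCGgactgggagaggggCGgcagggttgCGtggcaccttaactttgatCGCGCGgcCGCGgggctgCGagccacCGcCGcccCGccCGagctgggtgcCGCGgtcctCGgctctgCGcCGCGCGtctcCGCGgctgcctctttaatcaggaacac
The stretch held 28 CpG dinucleotides. For the 47 guidance genes with a promoter entry in RefSeq, the 300 bases around the most upstream start held a median of 22 CpG against 14 for 16522 genes. The 10 guidance genes with an entry but no promoter peak in any library held a median of 14.5 CpG, and the 6934 genes of this kind a median of 4.

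The number of peaks was 25941 in the e13.5 nose, the largest library, and 6571 in the smallest, the maxillary process of e11.5. The 3 nasal libraries of e11.5 and e13.5 held 20492 to 25941 peaks and the 4 mandibular or maxillary libraries of these stages 6571 to 10753, so region and peak number cannot be told apart. The number of reads was unknown, and every comparison was therefore repeated at equal yield, with the 6571 peaks of highest −log10 q from each library. For the e15.5 libraries the tissue in the label and in the deposited peak names differed, and they were used as a stage but not for the regional comparison. Hand2, a mandibular marker, had a promoter peak in both earlier mandibular libraries (14500 and 16373 bp). At e15.5 it had one in the library labelled maxillary process (29625 bp) and in neither of the others. The other listed mandibular markers were less clear. Hand1 had no promoter peak in any library. Dlx5 and Dlx6 had one in both earlier mandibular libraries, but also in the medial nasal plate (4811 and 814 bp) and the e13.5 nose (4729 and 3073 bp). At e15.5, Dlx5 had one in the libraries labelled mandibular (3629 bp) and maxillary process (8556 bp), and Dlx6 in the latter (4360 bp). Of 6 facial mesenchyme markers, 4 had a promoter peak in all 10 libraries (Prrx1, Prrx2, Twist1 and Msx1), and none of 3 macrophage markers had one in any. Neuronal markers had promoter peaks for at most 2 of 6 genes in a library. Epithelial markers had promoter peaks for 0 to 4 of 5 genes at e11.5 and for 2 to 5 of 5 at e15.5, and their part in the stage differences below was not tested. In mixed tissue, fewer acetylated cells and less acetylation per cell cannot be told apart.

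Most guidance genes carried an acetylated promoter somewhere in the face. A promoter peak, meaning a peak within 1 kb of any annotated start site of the gene, was found in at least 1 library for 42 of the 53 genes (79.2%) and for 56.0% of all protein-coding genes. With the same number of peaks per library, a promoter peak was found in at least 1 library for 27 of the 53 genes (50.9%). The share of all protein-coding genes was then 39.97%. In single libraries, 14 to 40 guidance genes had one. The share of guidance genes with a promoter peak was above that of all genes in each of the 10 libraries, with 26.4% against 20.5% in the smallest library and 75.5% against 51.9% in the largest. At equal yield it was 26.4% to 39.6% for guidance genes and 20.5% to 29.5% for all genes, and the order held in each of the 10 libraries. The guidance genes had 1 to 17 annotated start sites, and the shares were not adjusted for the number of start sites.

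**Figure D1:**
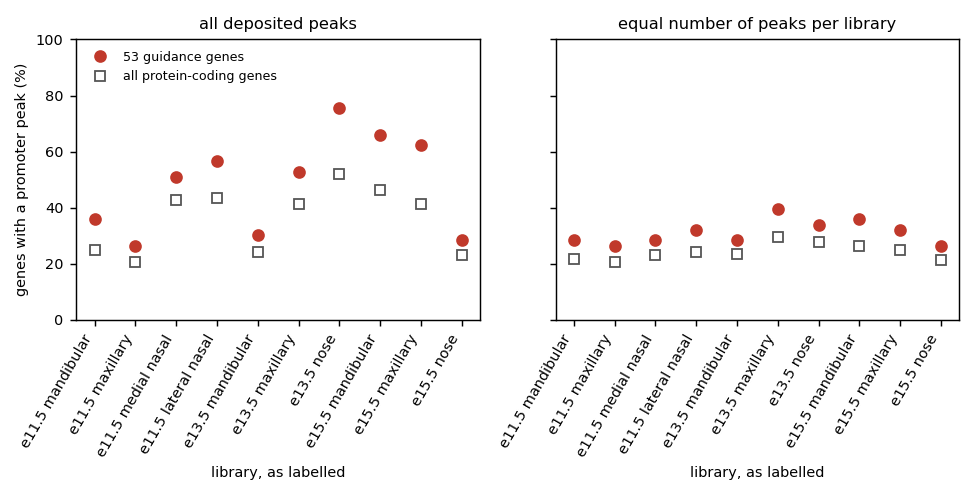
Percentage of genes with a promoter peak (y axis) in each library (x axis), for the 53 guidance genes (filled circles) and all protein-coding genes (open squares), with all deposited peaks on the left and the same number of peaks per library on the right. The circles lie above the squares in each library, at 26.4% to 75.5% with all peaks and at 26.4% to 39.6% at equal yield.

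Promoter peaks were found in all 10 libraries for 7 guidance genes (13.2%, against 13% of all genes). These were the ligand genes Sema3f, Sema4c, Efna4 and Efna5 and the receptor genes Plxnb1, Ephb3 and Ephb4. At equal yield 5 guidance genes had a peak in all 10 libraries (9.43%, against 11.2% of all genes), a share below that of all genes. No promoter peak was found in any library for 11 guidance genes (20.8%, against 44.0% of all genes), namely the ligand genes Sema3e, Sema3g, Sema4f, Sema5b and Sema7a and the receptor genes Plxna4, Plxnb3, Epha6, Epha8, Epha10 and Ephb1. A gene without a promoter peak was not without acetylation, since Sema5b had 10 distal peaks, Ephb1 9 and Plxna4 8 over the 10 libraries, where distal means more than 1 kb from every annotated start site. The promoter peaks of guidance genes were wide, with a median of 2611 to 4113 bp in a library against 1488.5 to 2004 bp for all genes with a promoter peak. The width of a gene is that of its widest peak at any start site, and it was not adjusted for the number of start sites.

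**Figure D2:**
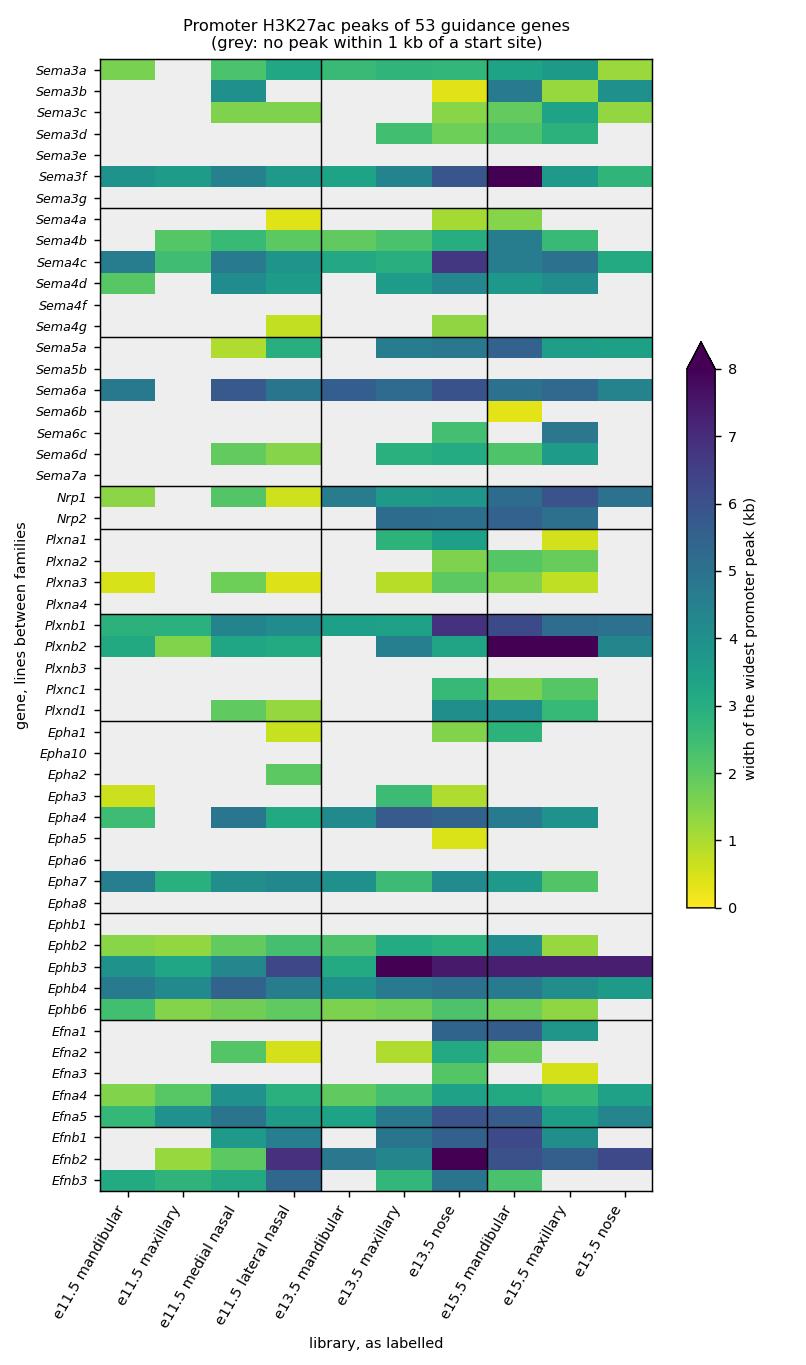
Width in kb (colour) of the widest promoter peak of each of the 53 guidance genes (rows, with lines between families) in each library (columns, with lines between stages), grey where no peak was called. Rows such as Ephb3, Ephb4 and Sema3f are filled in all 10 libraries, and 11 rows are grey throughout.

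Among the class 3 semaphorins, which are the secreted ligands, Sema3f had the most distal peaks and a promoter peak in every library. Its promoter peak was 3901, 3616, 4492 and 3694 bp wide at e11.5 in the mandibular process, maxillary process, medial nasal plate and lateral nasal plate, 3353, 4391 and 5868 bp at e13.5 in the mandibular process, maxillary process and nose, and 12959, 3687 and 2778 bp at e15.5 in the libraries labelled mandibular process, maxillary process and nose. One e15.5 library thus stood far above the others, and the remaining widths overlapped between stages. Sema3a, the founding repellent of the class, had widths in the same order of 1600, 0, 2264 and 3244 bp, then 2565, 2770 and 2711 bp, then 3368, 3645 and 1214 bp, where 0 means no peak. Only the e11.5 maxillary process, the library with the fewest peaks, lacked it. Sema3f had 22 distal peaks over the 10 libraries and Sema3a 12. With overlapping peaks of the libraries merged, the distal regions numbered 2 for Sema3f and 11 for Sema3a. The 2 regions of Sema3f were neighbours upstream of the gene, 2206 bp and 10793 bp from its start, and were found in 8 and 6 libraries. Sema3b, Sema3c and Sema3d had promoter peaks in 5, 6 and 4 libraries, and Sema3e and Sema3g in none.

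The class 4 semaphorins are membrane-bound ligands, several of which bind B plexins. Sema4b, with 16 distal peaks, had promoter widths of 0, 2108, 2622 and 2006 bp at e11.5, 1944, 2308 and 3020 bp at e13.5 and 4631, 2614 and 0 bp at e15.5. Sema4d, with 15 distal peaks, had widths of 2088, 0, 4118 and 3585 bp, then 0, 3606 and 4290 bp, then 3731, 4067 and 0 bp. The libraries without a peak of either gene were all among the 4 with the fewest peaks. Sema4c was the class 4 gene with a promoter peak in all 10 libraries (2440 to 6700 bp). Sema4a and Sema4g had one in 3 and 2 libraries, and Sema4f in none.

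Of the classes 5 to 7, which are membrane proteins, Sema6a had the most distal peaks (25), followed by Sema5a (18). Promoter peaks of Sema6a were 4780, 0, 5751 and 4887 bp wide at e11.5, 5622, 5203 and 5987 bp at e13.5 and 4984, 5251 and 4407 bp at e15.5. Apart from the e11.5 maxillary process, in which none was called, the widths were within the same range at the 3 stages. Those of Sema5a were 0, 0, 948 and 2968 bp, then 0, 4634 and 4805 bp, then 5494, 3542 and 3452 bp. In bp, all 3 libraries of e15.5 had a wider peak than any of e11.5, 2 of which had no peak. Relative to the library median the stages overlapped, with 1.77 in the e15.5 library labelled maxillary process against 1.83 in the lateral nasal plate. With an absent peak in the e11.5 mandibular and maxillary processes the gene could not enter the test of widths. Sema5b had no promoter peak but 3 and 2 distal peaks in the medial and lateral nasal plate of e11.5, 4 in the e13.5 nose, 1 in the e15.5 library labelled mandibular process, and none in the other 6 libraries. Sema6b, Sema6c and Sema6d had promoter peaks in 1, 2 and 6 libraries.

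The neuropilins had wider or additional promoter peaks after e11.5. The Nrp1 promoter peak was 1382, 0, 2132 and 584 bp wide at e11.5, 4628, 3713 and 3824 bp at e13.5, and 5176, 5957 and 4988 bp at e15.5. Every later library had a wider peak than every e11.5 library, and the stages did not overlap. Its width relative to the median promoter peak of the library, with the absent peak as 0, was 0.592 ± 0.528 (SD, n = 4) at e11.5 and 2.75 ± 0.192 (n = 3) at e15.5, a difference of 2.16 (exact permutation test, two-sided, p = 0.0286, the smallest these 7 libraries allow, and 0.630 after Benjamini-Hochberg adjustment over 11663 genes). Nrp2 had no promoter peak at e11.5, then 0, 5159 and 5096 bp at e13.5 and 5491, 5053 and 0 bp at e15.5. Its 4 promoter peaks were alike in width and lay between 2.52 and 2.88 times the library median. Distal peaks were few for Nrp1 (1 over the 10 libraries), while Nrp2 had 12, of which 2 and 3 were in the medial and lateral nasal plate at e11.5, where its promoter had no peak.

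**Figure D3:**
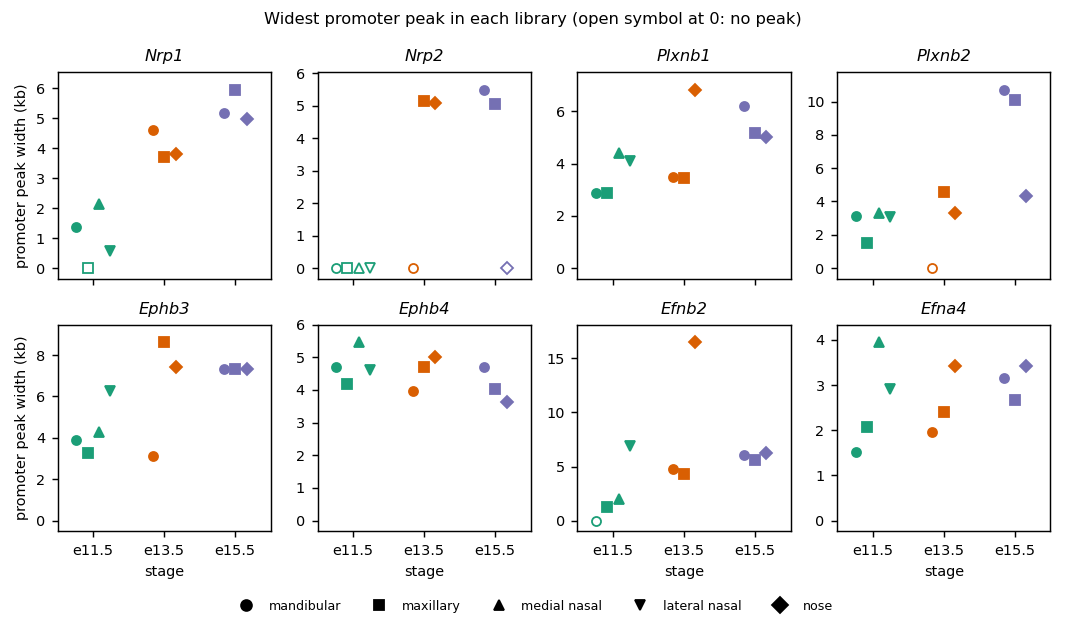
Width in kb (y axis) of the widest promoter peak of 8 guidance genes in each library, by stage (x axis), with a symbol shape for each labelled tissue and an open symbol at 0 where no peak was called. Nrp1 lies at 0 to 2132 bp at e11.5 and at 3713 bp or more later, Plxnb2 reaches 10712 bp at e15.5, and Ephb4 stays between 3629 and 5458 bp at all stages.

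The A plexins, the signalling partners of the neuropilins, had narrow or few promoter peaks. Plxna1 had none at e11.5, then 0, 2819 and 3490 bp at e13.5 and 0, 549 and 0 bp at e15.5. Plxna4 had no promoter peak, and 1, 0, 1 and 2 distal peaks at e11.5, 0, 0 and 2 at e13.5 and 1, 0 and 1 at e15.5. Both genes had 8 distal peaks in all. Plxna2 had promoter peaks of 1550 to 2094 bp in 3 libraries after e11.5, and Plxna3 peaks of 418 to 2012 bp in 7 libraries.

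The B plexins, receptors for class 4 semaphorins, were among the most regularly acetylated guidance genes. Plxnb1 was 2873, 2878, 4404 and 4103 bp wide at e11.5, 3485, 3435 and 6821 bp at e13.5 and 6192, 5155 and 5028 bp at e15.5. Plxnb2 was 3151, 1522, 3286 and 3095 bp wide at e11.5, 0, 4543 and 3336 bp at e13.5 and 10712, 10127 and 4313 bp at e15.5. Both genes had wider peaks in each e15.5 library than in each e11.5 library. For Plxnb2 the log2 relative width was 1.99 ± 0.68 (SD, n = 3) at e15.5 and 0.68 ± 0.43 (n = 4) at e11.5, a difference of 1.31 (exact permutation test, two-sided, p = 0.0286, adjusted p = 0.374). When all promoter peaks of Plxnb2 were summed, the stages overlapped (p = 0.0857, exact), and at equal yield the gene could not be tested. For Plxnb1 the difference was 0.40 (1.48 ± 0.15 against 1.08 ± 0.31, exact p = 0.114, adjusted p = 0.523), and the same value, 0.40, was found at equal yield. The widest Plxnb2 peak lay at chr15:89172316-89183027, contained no start site of another protein-coding gene, and was wider than 99.5% of the promoter peaks of its library. Plxnb3, the remaining B plexin, had no promoter peak and no distal peak.

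Plxnc1 and Plxnd1 are the receptors of the C and D classes. Plxnc1 had promoter peaks of 2645 bp in the e13.5 nose and 1566 and 2112 bp in the e15.5 libraries labelled mandibular and maxillary process, and none at e11.5. Its 12 distal peaks were 0, 0, 2 and 2 at e11.5, 0, 0 and 2 at e13.5 and 1, 5 and 0 at e15.5. Plxnd1 had promoter widths of 0, 0, 1957 and 1275 bp, then 0, 0 and 4004 bp, then 4113, 2632 and 0 bp. Each library in which Plxnd1 had a promoter peak held at least 16572 peaks.

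Of the EphA receptors, which mainly bind the ephrin-A ligands, Epha7 and Epha4 had promoter peaks in most libraries. Epha4 widths were 2469, 0, 4860 and 3134 bp at e11.5, 4157, 5694 and 5468 bp at e13.5 and 4749, 3915 and 0 bp at e15.5. Epha3 widths were 602, 0, 0 and 0 bp, then 0, 2531 and 960 bp, then 0, 0 and 0 bp. Epha3 thus had few promoter peaks, but it had 11 distal peaks, and a region in its intron 4232 bp from a start site was found in 7 libraries. Epha7 had a promoter peak in 9 libraries, of 2522 to 4586 bp in each of the 7 earlier libraries and of 3694, 2157 and 0 bp at e15.5. With the absent peak as 0, the stages e15.5 and e11.5 did not overlap (relative width 0.980 ± 0.936, n = 3, against 2.38 ± 0.311, n = 4, exact p = 0.0286, adjusted p = 0.630). Epha1, Epha2 and Epha5 had promoter peaks in 3, 1 and 1 libraries, and Epha6, Epha8 and Epha10 in none.

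The EphB receptors, which mainly bind ephrin-B ligands, held the gene with the most distal peaks. Ephb3 had 42 distal peaks, with 3, 2, 5 and 8 at e11.5, 1, 3 and 6 at e13.5 and 6, 5 and 3 at e15.5. Ephb3 and Efna5 were the only guidance genes with a distal peak in each of the 10 libraries. Its promoter peak was 3914, 3272, 4288 and 6250 bp wide at e11.5, 3103, 8613 and 7427 bp at e13.5 and 7307, 7306 and 7331 bp at e15.5. The e15.5 widths in bp lay above all e11.5 widths, but the relative widths overlapped (difference 0.53 on the log2 scale, exact p = 0.114, adjusted p = 0.523). Downstream of Ephb3, 3 regions lay 22909, 87069 and 96087 bp from the nearest of its 6 annotated start sites and were found in 9, 9 and 7 libraries. Ephb2, with 23 distal peaks, had promoter widths of 1411, 1303, 1923 and 2355 bp, then 2235, 3073 and 2896 bp, then 4101, 1227 and 0 bp, and a region in its intron was found in 8 libraries.

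Ephb4 is the partner of ephrin-B2 in vessels. Among the 8 guidance genes with a promoter peak in all 7 libraries of e11.5 and e15.5, it was the one whose relative width was lower in every e15.5 library than in every e11.5 library. Its widths were 4688, 4188, 5458 and 4604 bp at e11.5, 3972, 4705 and 5008 bp at e13.5 and 4709, 4045 and 3629 bp at e15.5. In bp the stages overlapped (exact p = 0.20), and relative to the library median they did not, with 1.08 ± 0.15 (log2, n = 3) at e15.5 and 1.51 ± 0.09 (n = 4) at e11.5, a difference of −0.44 (exact p = 0.0286, adjusted p = 0.374). Ephb6 had promoter peaks in 9 libraries (1331 to 2432 bp). Ephb1 had no promoter peak and 9 distal peaks, 1, 1, 2 and 2 at e11.5, 0, 1 and 2 at e13.5 and none at e15.5.

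Among the ephrin-A ligands Efna5 had the most distal peaks (34), 1, 1, 9 and 6 at e11.5, 2, 1 and 7 at e13.5 and 3, 3 and 1 at e15.5. Its promoter peak was 2685, 3947, 4916 and 3572 bp wide at e11.5, 3351, 4758 and 5957 bp at e13.5 and 5696, 3501 and 4363 bp at e15.5, and the stages overlapped. Efna4 was 1526, 2065, 3947 and 2908 bp wide, then 1955, 2404 and 3432 bp, then 3150, 2673 and 3419 bp. The Efna4 peak in the medial nasal plate also covered a start site of Adam15, a neighbouring gene. Efna1 had promoter peaks of 5415 bp in the e13.5 nose and 5634 and 3774 bp in the e15.5 libraries labelled mandibular and maxillary process, and in no other library. Efna2 and Efna3 had them in 5 and 2 libraries.

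The ephrin-B ligands are transmembrane proteins that can also signal into their own cell. Efnb2 was 0, 1232, 2027 and 6862 bp wide at e11.5, 4812, 4338 and 16476 bp at e13.5 and 6026, 5565 and 6234 bp at e15.5. The peak in the e13.5 nose, at chr8:8645656-8662131, was the widest promoter peak of any guidance gene in these libraries, wider than 99.9% of the promoter peaks of that library. Efnb1, with 8 distal peaks, was 0, 0, 3708 and 4567 bp wide, then 0, 4900 and 5518 bp, then 6239, 4046 and 0 bp. It was absent from the 4 libraries with the fewest peaks. Efnb3 had promoter peaks in 7 libraries, 1 of them covering a start site of Wrap53, and in 1 of the 3 e15.5 libraries.

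Ligands and receptors that are known to bind each other were set side by side by promoter peaks in the same library. Sema3a and Nrp1 both had one in 9 libraries and neither had one in the e11.5 maxillary process. Sema4c and Plxnb2 both had one in 9 libraries, Sema4d and Plxnb1 in 7, Efna5 and Epha7 in 9, Efna5 and Epha4 in 8, Efnb2 and Ephb4 in 9, Efnb2 and Epha4 in 7, and Efnb1 in 6 with each of Ephb2 and Ephb3. For other pairs the overlap was small, with Sema3f and Nrp2 both present in 4 libraries while Sema3f alone was present in 6, and Sema6d and Plxna1 both present in 3. Sema3e and Sema7a had no promoter peak although their receptors Plxnd1 and Plxnc1 had one in 5 and 3 libraries, and Plxna4 had none although its ligand Sema6a had one in 9. Sema3f, Sema4c, Plxnb1, Efna5, Ephb3 and Ephb4 had a promoter peak in all 10 libraries. For pairs with one of these genes, the shared count therefore equals the partner's own count and says nothing about the pair. Pairs of other genes were not counted for comparison. The counts of pairs describe tissue with mixed cells and do not place ligand and receptor in the same cell.

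The first comparison was between e11.5 and e15.5, and asked how the marks change as the face grows. Relative promoter widths could be compared for the 8 guidance genes with a peak in all 7 libraries. Widths at e15.5 were above all those at e11.5 for 2 of them (Plxnb1 and Plxnb2), and 5.35% of the 3101 genes tested did so. Widths were lower at e15.5 for 1 (Ephb4), and for 8% of genes. No gene of the genome passed an adjusted p of 0.05 in this exact test, in which 237 genes had an unadjusted p below 0.05. With absent peaks counted as width 0, 3 of 41 guidance genes were wider at e15.5 (Nrp1, Plxnb1 and Plxnb2, background 4.18% of 11663 genes) and 4 at e11.5 (Epha7, Ephb4, Ephb6 and Efnb3, background 3.28%). At equal yield 3 of 25 guidance genes were wider at e15.5 (Sema5a, Nrp1 and Plxnb1, against 7.98% of 7995 genes) and 6 of 25 at e11.5 (Sema3f, Epha7, Ephb2, Ephb4, Ephb6 and Efnb3, against 6.5%). The median difference of the 8 genes was 0.11 on the log2 scale, and that of all genes −0.03.

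A promoter peak after e11.5 only was seen for more guidance genes than the reverse. A peak in no e11.5 library and in at least 2 later ones was found for 8 of the 42 guidance genes with any promoter peak, the ligand genes Sema3d, Sema6c, Efna1 and Efna3, the co-receptor gene Nrp2, and the receptor genes Plxna1, Plxna2 and Plxnc1. This was so for 8.5% of the 12282 genes with any promoter peak. The reverse, at least 2 peaks at e11.5 and none later, was found for no guidance gene and for 0.48% of genes. This rule was chosen after the values had been seen. At equal yield 6 guidance genes met the first rule, and with the e15.5 libraries left out 3 did. The share of all genes was not counted at these settings, so neither count can be set against the genome. The e11.5 group held the library with the fewest peaks of all and the e13.5 group the one with the most.

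Distal peaks of guidance genes numbered 18, 14, 68 and 78 at e11.5, 8, 12 and 88 at e13.5 and 39, 38 and 16 at e15.5. They made up 0.604%, 0.651%, 0.665% and 0.701% of the distal peaks of the e11.5 libraries, 0.453%, 0.666% and 0.666% at e13.5 and 0.448%, 0.564% and 0.573% at e15.5. Each e15.5 share was below each e11.5 share. The mean was 0.655% ± 0.0399 (SD, n = 4) at e11.5, 0.595% ± 0.123 (n = 3) at e13.5 and 0.529% ± 0.0697 (n = 3) at e15.5, a difference of −0.127 percentage points between the last and the first. At equal yield the difference was 0.0222 percentage points in the other direction. The exact 95% binomial intervals of the single shares, which cover counting error only, overlapped, and the difference was given no test. For single genes, the number of distal peaks per 10000 distal peaks of the library was compared for the 15 guidance genes with at least 10 distal peaks. The stages did not overlap for any of them, whether higher at e15.5 (background 7.09% of 1735 genes) or at e11.5 (5.76%), and no gene passed an adjusted p of 0.05 (114 unadjusted). The largest differences were those of Sema5a (1.37 ± 1.5 per 10000 at e15.5 and 4.68 ± 2.01 at e11.5, exact p = 0.0857, adjusted p = 0.535) and Ephb2 (1.64 ± 1.73 and 4.35 ± 0.68, exact p = 0.0571, adjusted p = 0.491).

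**Figure D4:**
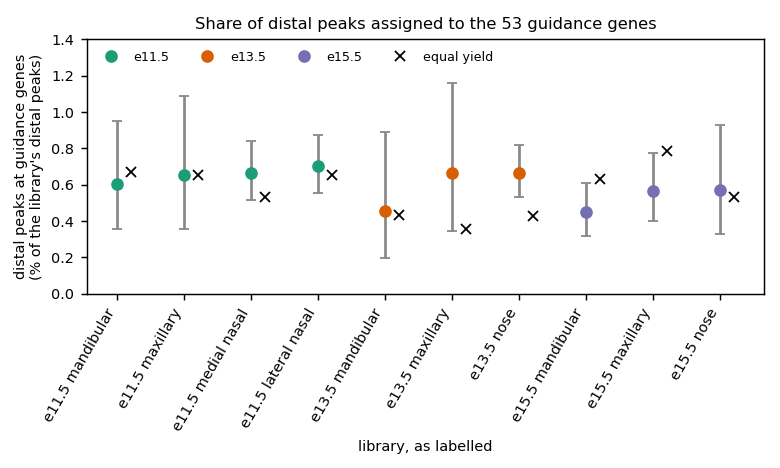
Distal peaks at the 53 guidance genes as a percentage of the distal peaks of each library (y axis, with exact 95% binomial intervals), by library (x axis), coloured by stage, with crosses for the same share at equal yield. The circles lie between 0.448% and 0.701%, and all intervals overlap.

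Overlapping peaks of the 10 libraries were merged into 42346 regions, of which 27439 were distal and 168 of those belonged to guidance genes. Of the 168, 106 (63.1%, against 58.8% of all distal regions) were found in 1 library, and 13 (7.74%, against 6.56%) in 6 or more. None of the 168 was found in all 10 libraries, and 0.893% of all distal regions were. The 168 regions lay in an intron of the gene in 88 cases (52.4%), between genes in 55, over an exon of the gene in 21 and inside another gene in 4. Their median distance from the nearest start site of the guidance gene was 31156 bp. Efna5 had 15 such regions, Sema3a 11 and Ephb3 10. Places and distances were not counted for all distal regions, so these are a description only.

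Between e11.5 and e15.5, 1 distal region of a guidance gene was gained, meaning found in all 3 e15.5 libraries and no e11.5 library (background 0.536% of distal regions), and 2 were lost (background 0.572%). The gained region, at chr6:89349440-89355067 in Plxna1, spanned 5628, 1959 and 1719 bases of peak in the 3 e15.5 libraries and 4631 in the e13.5 nose. It was also counted at equal yield. The first lost region, at chr17:62613051-62616023, overlapped an exon at the far end of Efna5, 265121 bp from its nearest start site, and held 2252, 2047, 2784 and 1746 bases of peak at e11.5, 648 in the e13.5 mandibular process and 2101 in the e13.5 nose. The other lost region, at chr9:102422523-102425326, lay 67830 bp upstream of Ephb1 and held 2612, 1550, 2004 and 1760 bases at e11.5, 1827 in the e13.5 maxillary process and 2262 in the e13.5 nose. All 3 regions were also found in the e13.5 nose, the library with the most peaks. Neither lost region was counted at equal yield.

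The second comparison set the 3 nasal libraries of e11.5 and e13.5 against the 4 mandibular and maxillary ones, the jaw libraries. Raw counts of peaks at several marker lists were higher in nasal libraries, which held more peaks of all kinds. Of 5 epithelial markers, 3 to 4 had a promoter peak in a nasal library and 0 to 1 in a jaw library. Of 5 olfactory and forebrain markers, 2 to 3 had a promoter peak in a nasal and 0 to 1 in a jaw library, with 9 to 13 distal peaks against 0 to 1. As a share of a library's distal peaks, the marker lists went in both directions. The mean share of olfactory and forebrain markers was 0.0951% in nasal and 0.0258% in jaw libraries. That of epithelial markers was 0.0678% and 0.0703%, that of endothelial markers 0.0960% and 0.139%, and that of facial mesenchyme markers 0.188% and 0.278%. The part of the marked cells in the regional differences was not tested. Relative promoter widths were higher in every nasal than in every jaw library for 2 of 10 guidance genes tested (background 9.88% of 3329 genes) and lower for none (0.451%). For Efna4 the log2 relative width was 0.96 ± 0.18 (SD, n = 3) in nasal and 0.17 ± 0.33 (n = 4) in jaw tissue, a difference of 0.79 (exact permutation test, two-sided, p = 0.0286, adjusted p = 0.630). For Plxnb1 it was 1.51 ± 0.31 and 0.86 ± 0.11, a difference of 0.65 (exact p = 0.0286, adjusted p = 0.630). Both genes kept non-overlapping groups at equal yield, with differences of 0.60 and 0.46. No gene passed an adjusted p of 0.05 in this test, and 136 had an unadjusted p below 0.05. All 10 differences were positive, as were 79.6% of those of all genes. With absent peaks as 0, 6 guidance genes were wider in nasal tissue (Sema3c, Sema4d, Sema6a, Plxnb1, Plxnd1 and Efna4, background 15.9% of 11884 genes) and none in jaw tissue (background 0.126%). At equal yield 3 of 25 guidance genes were wider in nasal tissue (Sema3a, Plxnb1 and Efna4, against 3.11% of 8188 genes) and none in jaw tissue (1.75%).

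Distal peaks of guidance genes were 0.677% of all distal peaks in nasal and 0.594% in jaw libraries, a difference of 0.0836 percentage points, which was 0.00937 at equal yield and 0.0367 without the e13.5 mandibular process. Shares per gene were higher in every nasal library for 3 of 15 guidance genes (background 13.4% of 1735 genes) and in every jaw library for none (background 16.1%). Sema5b had 2.59 ± 0.685 distal peaks per 10000 in nasal libraries, Plxnc1 1.76 ± 0.223 and Epha4 1.73 ± 0.879, and each had 0 distal peaks in the 4 jaw libraries. These 3 genes reached the minimum of 10 distal peaks without any jaw peak, so their count and values are a description and no p is given. Plxnc1 and Sema5b each had a distal region found in all 3 nasal libraries, while no distal region of Epha4 was found in more than 1 of them. In the e15.5 libraries as labelled, Epha4 had 1, 1 and 2 distal peaks and Plxnc1 1, 5 and 0. The jaw libraries held 1765 to 2978 distal peaks each and the nasal ones 10231 to 13207, and at the mean nasal share of Sema5b, Plxnc1 and Epha4 the largest jaw library would hold 0.770, 0.523 and 0.515 distal peaks of the gene, so the difference was not detectable at this depth. At equal yield none of the 3 genes had enough distal peaks to be tested. No gene passed an adjusted p of 0.05 in the test of distal shares, and 336 had an unadjusted p below 0.05.

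Distal regions found in all 3 nasal libraries and in no jaw library numbered 10 for guidance genes (background 6.35% of distal regions). Without the lateral nasal plate they numbered 18, for which no background was counted. No region of any gene was found in all jaw libraries and no nasal one (background 0%). The widest nasal region, at chr17:62960279-62966234, lay between genes 78962 bp upstream of Efna5 and held 5191, 4742 and 5956 bases of peak in the medial nasal plate, the lateral nasal plate and the e13.5 nose, and 4897 in the e15.5 library labelled mandibular process. The next, at chr16:21272254-21275551, lay downstream of Ephb3, 50568 bp from its nearest annotated start site, and held 2505, 1836 and 3068 bases, with 1683 and 1924 in the e15.5 libraries labelled mandibular and maxillary process. The third, in an intron of Sema4d at chr13:51729242-51731635, held 993, 2394 and 1257 bases. The fourth, over an exon of Ephb2 at chr4:136648428-136650763, held 1861, 1301 and 2336 bases, and the fifth, in an intron of Plxna4 at chr6:32367603-32369824, held 1876, 1900 and 1729 bases. These last 3 were found in no e15.5 library. The other 5 regions belonged to Sema4b, Plxnc1, Epha7, Sema5b and Efna5 and spanned 1100 to 1794 bp. Of these, that of Plxnc1 was found too in the e15.5 libraries labelled mandibular process (1620 bases) and maxillary process (1747 bases), that of Sema5b in the former (894 bases) and those of Epha7 and Efna5 in the latter (534 and 1000 bases), and that of Sema4b in none. None of the 10 was counted at equal yield.

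**Figure D5:**
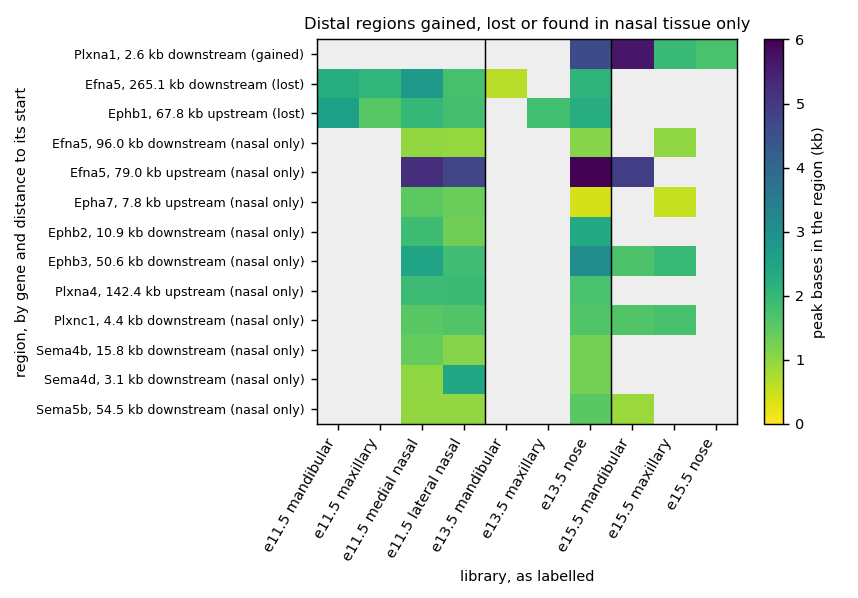
Bases of peak in kb (colour) in each library (columns) for the 13 distal regions of guidance genes that were gained, lost or, at e11.5 and e13.5, found in nasal tissue only (rows, named by gene, distance to the nearest start site of the gene and class), grey where no peak was called. The region upstream of Efna5 holds 4742 to 5956 bases in the 3 nasal libraries, and the 3 regions gained or lost between e11.5 and e15.5 are all present in the e13.5 nose.

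The other families and the effectors of the same pathways were counted in the same way. Of 25 genes of other guidance families (Slits, Robos, netrins and their receptors, repulsive guidance molecules and FLRT proteins), 6 had a promoter peak in all 10 libraries and 8 in none, and they held 97 distal regions, of which 0 were gained and 2 lost. Of 37 co-receptors and intracellular effectors, 6 had a promoter peak in all 10 libraries and 9 in none, with 149 distal regions, of which 1 was gained and 0 lost. Of all protein-coding genes, 13% had a promoter peak in all 10 libraries and 44.0% in none. Of all distal regions, 0.536% were gained and 0.572% lost. No gene of either list met the rule of a promoter peak after e11.5 only, which 8.5% of genes with any promoter peak met. That rule was chosen after the values of the guidance genes had been seen, so this count is a description only. Widths were higher at e15.5 for 1 of 6 and 1 of 8 tested genes of the 2 lists (background 5.35%). They were lower for 0 and 1 (background 8%). The share of distal peaks lay within 0.279% to 0.571% at e11.5 and 0.193% to 0.251% at e15.5 for the other guidance families, and within 0.233% to 0.539% and 0.358% to 0.575% for the effectors. These ranges did not overlap between stages for the other guidance families and overlapped for the effectors. At equal yield the shares of the other guidance families were 0.262% to 0.569% at e11.5 and 0% to 0.146% at e15.5, and those of the effectors 0.177% to 0.414% and 0.313% to 0.451%.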

How the data were processed

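H3K27ac ChIP-seq of mixed cells from wild-type mouse facial tissue was analysed from the broad peak lists of 10 samples, 1 list each, and 10 input samples were not analysed here. Per the labels, dissected tissue was crosslinked and sonicated, and acetylated chromatin was recovered with an H3K27ac antibody. The tools named in the submitters' processing notes are MACS2 2.2.4, BWA 0.7.7 and SAMtools 0.1.19, with the build mm10. For human libraries of the study the methods state broad peaks and a q-value below 0.05. Settings for the mouse libraries are not given in the sources used here. For each peak the authors deposited a score, a fold enrichment over background and −log10 of the p-value and q-value, each computed within its own list. The smallest −log10 q was 1.30. Read depth was unknown. Fold enrichments and scores were not compared between libraries, and −log10 q was used within each list, for ranking and filtering.

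The members and the gene lists were chosen with earlier results of these data known. Groups followed the labels. The e15.5 labels and peak names give different tissues, so in the main results these libraries entered the stage comparison only. Each stage and tissue had 1 library, so the spread between libraries of a stage or region includes differences between tissues or stages. Nothing in the labels says whether libraries came from separate embryos, and p-values measure only the spread between these samples.

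Of 144896 peaks, the 144852 on the autosomes, X and Y were used, and all of them ended within the GRCm38 chromosomes. Start sites were the 132629 positions of GENCODE vM21 transcripts. Relative width was the widest promoter peak of a gene over the median of all genes of the library. Group means were compared by a two-sided exact permutation test over all 35 assignments, for which the smallest p is 0.0286, with Benjamini-Hochberg adjustment over all genes tested. A gene was counted when the values of the groups did not overlap. The width test took genes with a promoter peak in all 7 libraries, and the test of distal shares took genes with at least 10 distal peaks. Scripts were tested on simulated widths with known differences. Regions were overlapping or touching peaks merged as bedtools 2.31.1 does. The members described in full were those whose groups did not overlap, those with a gained or lost region and, in each family, the 2 with the most distal peaks. The others were given by range and count. Epha7, Ephb6 and Efnb3 were named after their values were seen, and so was Sema4c. Alternatives were equal yield, −log10 q of 2 or more, a window of 2.5 kb, and other rules of assignment, merging and width. Further ones were leaving out each library and, for the regional comparison, all 10 libraries with e15.5 as labelled. The tools were scipy 1.17.1, pandas 2.3.3 and numpy 2.4.6 under Python 3.11.15, with figures drawn by matplotlib 3.10.9.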

Additional observations from a re-analysis of the deposited data

Results flagged for a closer look

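In groups of 4 libraries, 49 sets of values were examined for 1 library that stood far from the other 3, and 7 did so. The sets of distal peaks hold small counts with ties at 0. A single peak beside 3 values of 0 always meets the rule, so the number flagged cannot be set against chance. The log2 relative promoter width of Plxnb2 was 0.0321 in the e11.5 maxillary process and 0.848 to 0.929 in the other e11.5 libraries. Sema3a had 0 distal peaks per 10000 in the e11.5 maxillary process and 3.36 to 3.91 in the other e11.5 libraries. In the 4 jaw libraries, Sema4c had a log2 relative width of 1.39 in the e11.5 mandibular process and 0.69 to 0.73 in the others. The remaining 4 were genes with a single distal peak in 1 jaw library and none in the other 3, with 5.67 per 10000 for Nrp2 in the e13.5 mandibular process, 3.36 for Sema3a in the e11.5 mandibular process, 5.55 for Sema4b in the e13.5 maxillary process and 4.65 for Sema4d in the e11.5 maxillary process. The e11.5 maxillary process held the fewest peaks of all libraries.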

How the results depend on the processing

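No paired analysis was possible because the labels give the groups no shared replicate numbers. With the stage as a block, an alternative chosen after the data were seen, the regional difference of the share was 0.0756 percentage points. Within each stage, 3 of 10 guidance genes were wider in nasal tissue (background 19.5% of 3329 genes) and 0 in jaw tissue (0.931%). Distal shares were higher in nasal tissue for 4 of 15 (Epha4, Sema3a, Plxnc1 and Sema5b, background 14.8% of 1735 genes). In jaw tissue this was so for 1 (Ephb3, background 17.6%). Epha4, Plxnc1 and Sema5b reached the minimum of 10 distal peaks without any jaw peak, so the 4 of 15 is a description only. With the stage as a block, the exact p of Efna4 and Plxnb1 was 0.0556, the smallest that the 18 assignments allow. Of the differences named for single genes, 90 of 91 values under alternatives kept their direction. These genes were named because their groups did not overlap in the same data, so the count is a description and no support. The exception was Plxnc1, whose distal peaks per 10000 differed by −0.11 between nasal and jaw tissue with all 10 libraries. There the e15.5 libraries were placed by their labels, which differ from the deposited peak names, so the value holds for the labels only. For Sema5b, Plxnc1 and Epha4, which had 0 distal peaks in the jaw libraries, leaving out a jaw library could not change the difference. Equal yield turned the stage difference of the distal share to 0.0222 percentage points, left 0 lost regions, 0 regions in nasal tissue only, 1 gene wider at e15.5 and 0 genes with a higher distal share in nasal tissue. With −log10 q of at least 2, the regional difference of the share was 0.266 percentage points, 0 regions were gained or lost, 4 genes had a promoter peak in all 10 libraries, 0 were wider at e15.5, and 1 gene each had a higher distal share in nasal and in jaw tissue. A window of 2.5 kb gave 1 gene with a higher distal share at e11.5 and 1 with a promoter peak at e11.5 only. With the nearest start site only, the stage difference was −0.0258 and 1 region was lost, and with 10 kb or overlap −0.0339 and 1. Base pairs in place of peaks gave 1 gene with a higher distal share at e15.5 and 2 at e11.5. Widths in bp gave 0 genes wider at e11.5, and summed promoter peaks 1 wider at e15.5. With all 10 libraries, the e15.5 ones again placed by their disputed labels, 0 regions were in nasal tissue only. At that setting 1 gene was wider in nasal tissue and 0 had a higher distal share. Alternatives chosen after the data were seen gave 3 genes with a promoter peak after e11.5 only without the e15.5 libraries, and, with absent peaks as width 0, 4 wider at e11.5 and 6 in nasal tissue. The cause of these shifts was not tested.

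Leaving out each library in turn gave 1 to 3 gained regions (3 without the e15.5 libraries labelled mandibular process or nose), 10 to 18 regions in nasal tissue only (18 without the lateral nasal plate), 1 to 3 genes wider at e11.5 (2 without the e11.5 maxillary process or the e15.5 library labelled mandibular process, 3 without that labelled nose), and 2 to 5 wider in nasal tissue (4 without the mandibular or the maxillary process of e11.5, 5 without the lateral nasal plate). For higher distal shares it gave 0 to 1 genes at e15.5 (1 without the library labelled mandibular or maxillary process), 0 to 3 at e11.5 (3 without the e11.5 mandibular process, 1 without the e11.5 maxillary process, the medial nasal plate or either e15.5 library with a jaw label), 1 to 4 in nasal tissue (1 without either nasal plate) and 0 to 2 in jaw tissue (1 without the lateral nasal plate, 2 without the e13.5 mandibular process). Except where a background is given, the counts under alternatives and with a library left out were not set beside a share of all genes or regions. They are a description only. The number of peaks limits every count of absent peaks.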
